A study of Glycine max with 6 samples.

Results

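Transcripts of 3 soybean nuclease genes, Glyma.01G048400 (ribonuclease 3-like), Glyma.02G107900 (ribonuclease 1-like) and Glyma.01G083300 (endonuclease 2-like), were followed in nodules formed with high or low phosphate. The 3 genes are part of the 39712 genes listed with a value above 0 in at least 1 of 6 libraries. They were chosen by their measured values: the study lists them among the genes that were higher at low phosphate in these same libraries. Their difference between the treatments is therefore given as a description with no test. The names come from protein matches given by the study. The enzyme class of each gene was not checked on its sequence here.

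Part of the phosphate in a plant cell is held in RNA. Ribonucleases of the T2 type are secreted or vacuolar enzymes that cut RNA into nucleotides, and in Arabidopsis the T2 enzymes RNS1 and RNS2 are induced by phosphate starvation. Endonuclease 2 of Arabidopsis is a member of the S1/P1 type, enzymes that need zinc and cut single-stranded nucleic acids. Nucleotides freed by such enzymes still carry phosphate, which phosphatases such as the purple acid phosphatases can release. Legume nodules, the root organs in which rhizobia fix nitrogen, are known as a strong sink for phosphate.

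Nodules of soybean (Glycine max) genotype YC03-3, nodulated by the rhizobium strain USDA110 in hydroponic culture, were compared between 500 μM KH2PO4 (HP) and 25 μM KH2PO4 (LP), the unit being μM in the study's methods and mM in the sample labels. Nodules over 3 mm were taken after 25 days, and poly(A) RNA of nodules pooled from 2 plants made up a library, with 3 libraries per treatment. The values are FPKM, that is, fragment numbers divided by gene length and by the library's total. The files listed 37078 to 37478 genes per library, with 17716117 to 18909026 fragments behind the values. The 4 leghemoglobin genes used as markers of infected nodule cells were listed in every library and lay between ranks 1 and 6, with a summed level of 72894 to 82024 FPKM at HP and 77744 to 85345 FPKM at LP, and none of the 4 was called between treatments. A library of whole nodules holds RNA of many cell types, so that fewer cells of a type and less RNA per cell cannot be told apart.

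Genes were tested where 3 or more libraries reached 0.5 FPKM, which left 31181. Among these, limma called 1041 genes higher and 1370 lower at LP, with an adjusted p of 0.05 or less and a log2 fold change of at least 1 in size. These are 3.34% and 4.39% of the genes tested, and 7.73% in either direction. The study, with DESeq2 at the same thresholds, reported more genes higher than lower. The median log2 fold change over all genes tested was −0.18. Median-of-ratios rescaling of the libraries shifted it by 0.18 and turned the split into 1404 higher and 676 lower. The 3 nuclease genes had log2 differences of 3.09 (Glyma.01G048400), 6.53 (Glyma.02G107900) and 4.48 (Glyma.01G083300) on the log2(FPKM + 0.1) scale, and 3.27, 6.64 and 4.63 after that rescaling. By size of increase they ranked 129, 10 and 47 among the 31181 genes, ranks that follow from the values that chose them. Glyma.02G107900 and Glyma.01G083300 reached the minimum of 0.5 FPKM only in their 3 LP libraries. The log2 differences of these genes depend on the added constant, with 3.52 and 2.77 at 1 in place of 0.1. The share of 3.34% called higher is only a background here, since the genes were selected on this contrast.

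**Figure D1:**
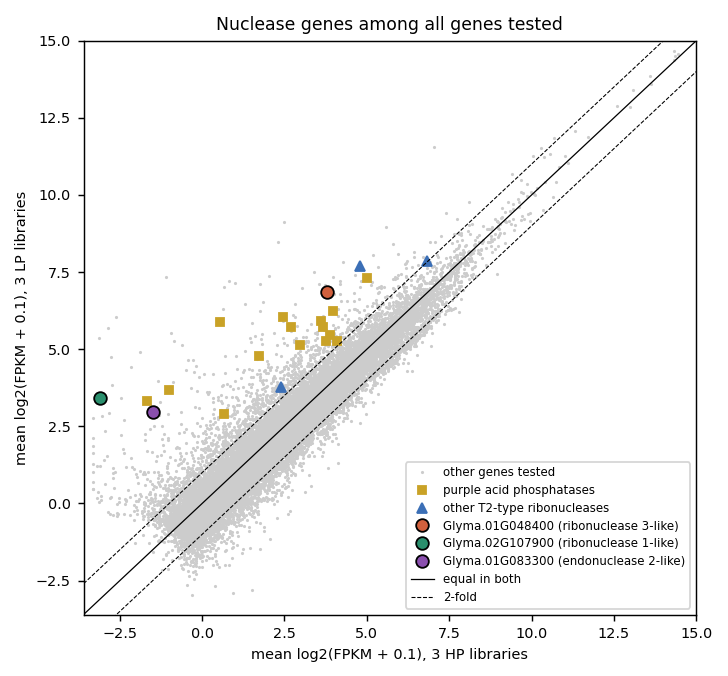
Mean log2(FPKM + 0.1) of the 3 LP libraries (y axis) against that of the 3 HP libraries (x axis) for the genes tested (grey points), with the 3 nuclease genes, the other T2-type ribonuclease genes and the purple acid phosphatases marked, a solid line of equal levels and dashed lines at 2-fold. Glyma.01G048400 moved from 13.9 to 118.0 FPKM, Glyma.02G107900 from 0.0189 to 10.7 FPKM and Glyma.01G083300 from 0.286 to 7.74 FPKM.

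Glyma.01G048400, the ribonuclease 3-like gene, was detected in all 6 libraries and had the highest level of the 3 genes in each of them. It lies on the plus strand of chromosome 1 at 5627602 to 5631187 (assembly Wm82.a2.v1), a span of 3586 bases, with a length of 1070 bases behind its FPKM values. Its level was 10.7, 17.6 and 13.5 FPKM in HP libraries 1 to 3 and 92.6, 126 and 135 FPKM in LP libraries 1 to 3. The treatments did not overlap, and the lowest LP library stood 5.27-fold above the highest HP library. Mean levels (± SD, n = 3 per treatment) were 13.9 ± 3.46 FPKM in HP nodules and 118.0 ± 22.5 FPKM in LP nodules, a ratio of 8.49. Among the 3 genes this was the smallest relative increase and the largest absolute one. Whole fragments recovered from the FPKM values numbered 208, 337 and 269 at HP and 1755, 2538 and 2737 at LP. Summed over libraries and set against the totals, they gave a ratio of 8.54, with a 95% exact binomial interval of 7.94 to 9.20 that covers counting error only. The highest HP library held 1.64 times the lowest and the highest LP library 1.46 times the lowest. By mean level the gene moved from rank 7534 at HP, above 80.6% of the genes listed, to rank 497 at LP, above 98.7%.

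Glyma.02G107900, the ribonuclease 1-like gene, was close to undetected at HP and moderately expressed at LP. The gene spans 2549 bases on the plus strand of chromosome 2, from 10303196 to 10305744, and the length behind its FPKM values was 986 bases. Its level was 0, 0.0566 and 0 FPKM in HP libraries 1 to 3 and 11.5, 9.28 and 11.3 FPKM in LP libraries 1 to 3. The gene was thus listed in 1 HP library and in all 3 LP libraries. The value in HP library 2 rests on 1 fragment, and the absence of fragments in HP libraries 1 and 3 allows, at 3 fragments per library, up to 0.167 and 0.163 FPKM. The LP values rest on 201, 172 and 211 fragments. The mean at LP was 10.7 ± 1.23 FPKM (SD, n = 3), with the highest LP library at 1.24 times the lowest. The 584 fragments at LP against 1 at HP gave a ratio of 578, with a 95% exact binomial interval of 103 to 22854 that covers counting error only. The size of the increase is therefore poorly bounded above, and on the log2 scale it depends on the constant added before taking logs: 3.52 with 1 and 9.15 with 0.01, against 6.53 with 0.1. At LP the gene stood above 77.1% of the genes listed.

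Glyma.01G083300, the endonuclease 2-like gene, was listed at a low level in every HP library. Its level was higher in the 3 LP libraries and almost equal among them. It lies on the minus strand of chromosome 1 at 24263040 to 24269044, a span of 6005 bases, with 1715 bases behind its FPKM values. Its level was 0.0961, 0.293 and 0.468 FPKM in HP libraries 1 to 3 and 8.03, 7.54 and 7.65 FPKM in LP libraries 1 to 3. The treatments did not overlap, the lowest LP library being 16.1-fold above the highest HP library. The HP values rest on 3, 9 and 15 fragments and the LP values on 244, 243 and 248. Mean levels were 0.286 ± 0.186 FPKM in HP nodules and 7.74 ± 0.258 FPKM in LP nodules (SD over 3 libraries). The LP libraries differed by 1.07-fold at most and the HP libraries by 4.87-fold, and on the log2(FPKM + 0.1) scale the SD was 0.047 at LP and 0.78 at HP. The fragment ratio was 26.9, with a 95% exact binomial interval of 18.4 to 41.1. That interval covers counting error only and leaves out the spread between the HP libraries. Leaving out HP library 1, the lowest, gave a log2 difference of 4.05 in place of 4.48, and with 1 as the added constant it was 2.77. By mean level the gene moved from above 15.1% of the genes listed at HP to above 69.6% at LP.

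**Figure D2:**
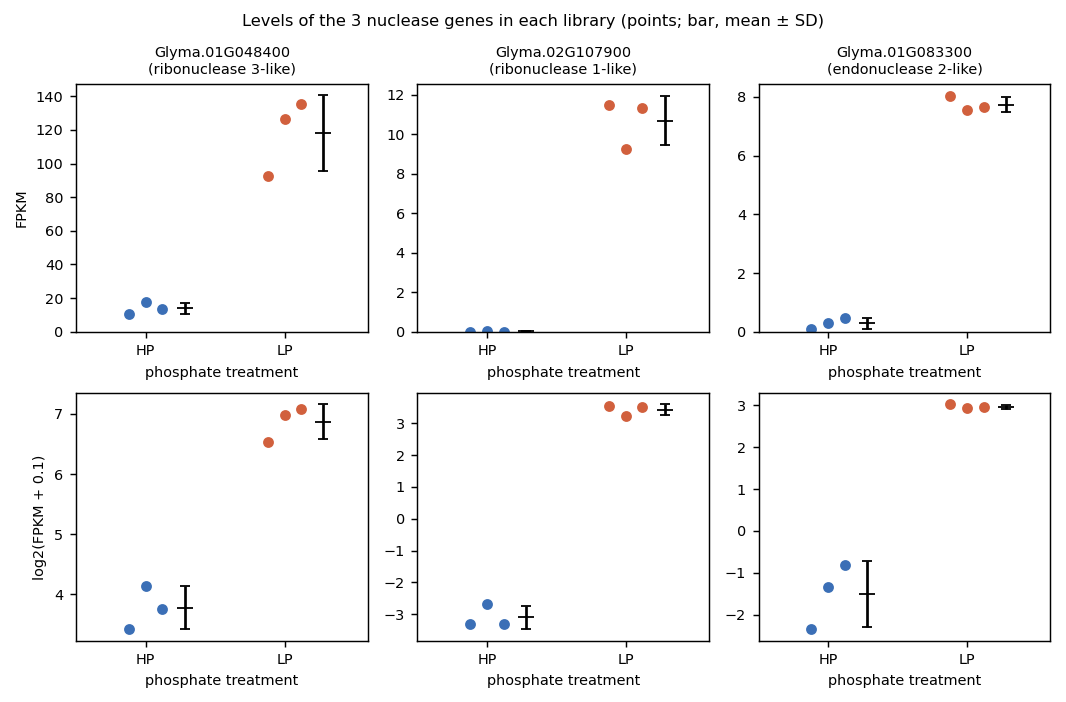
FPKM (upper panels, linear axes from 0) and log2(FPKM + 0.1) (lower panels) of the 3 nuclease genes by treatment, with a point per library and bars for the mean ± SD of 3 libraries. In all 3 genes the LP libraries lie above the HP libraries, with the widest gap on the log2 scale in Glyma.02G107900, which was at 0 in HP libraries 1 and 3. The genes were chosen as higher at LP, and the share of all genes that separate in this way was not computed.

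The order of the levels differed between the treatments. FPKM are scaled to gene length, so levels can be set side by side between genes. In HP libraries 2 and 3 the order was ribonuclease 3-like, endonuclease 2-like, ribonuclease 1-like. In HP library 1 the lower 2 could not be ordered, since the endonuclease 2-like gene was at 0.0961 FPKM and the 0 of the ribonuclease 1-like gene allows up to 0.167 FPKM. In each LP library the ribonuclease 1-like gene stood above the endonuclease 2-like gene. At LP these 2 neighbours in the order lay at 9.28 to 11.5 and 7.54 to 8.03 FPKM, ranges that do not overlap, and their ratio was 1.23 to 1.48. The top of the order was far from both: the ribonuclease 3-like gene held 8.05 to 13.6 times the level of the ribonuclease 1-like gene at LP and 11.5 to 17.7 times that of the endonuclease 2-like gene. Against the endonuclease 2-like gene that ratio was 28.7 to 111 at HP. These orders follow from the values that chose the genes and are given without a test.

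In addition, 3 genes have protein matches named ribonuclease 2-like, ribonuclease S-2-like and ribonuclease 1-like. These names were read here as the T2 type, with no check on sequence. The study's list of changed genes gave their names, so they too were chosen on these samples, and their direction is not independent evidence. All 3 were tested and all 3 were called higher at LP by limma, beside 3.34% of all genes tested, with a median log2 fold change of 1.39. Glyma.07G059300, a ribonuclease 2-like gene, carries the name of the Arabidopsis enzyme RNS2, which acts on ribosomal RNA in the vacuole. Its level was 32.3, 27.6 and 24.2 FPKM in the HP libraries and 223.7, 196.6 and 202.5 FPKM in the LP libraries. The treatments did not overlap, and the log2 fold change was 2.89 (SE 0.13, limma adjusted p = 1.2e-05, higher in 3 of 3 LP libraries), with a call in each of the 6 fits that left out 1 library.

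The other T2-type genes lie side by side on chromosome 2, 3114 bases apart. Their sequences were not compared, so it is not known whether fragments of alike stretches were split between them. Glyma.02G064100 (ribonuclease S-2-like) had the highest level of the 5 T2-type genes at HP, with 95.04, 177.9 and 85.65 FPKM at HP and 250.2, 208.7 and 245.7 FPKM at LP. Its log2 fold change was 1.05 (SE 0.26, limma adjusted p = 0.027). HP library 2 stood well above the other HP libraries, and without it the log2 fold change was 1.37 (adjusted p = 0.0012). The call was lost when any of the other 5 libraries was left out, with limma adjusted p-values of 0.084 (without HP library 1), 0.066 (HP library 3), 0.071 (LP library 1), 0.059 (LP library 2) and 0.068 (LP library 3). Glyma.02G064200 (ribonuclease 1-like) had 6.53, 6.92 and 3.00 FPKM in the HP libraries and 16.2, 10.96 and 14.5 FPKM in the LP libraries, without overlap. Its log2 fold change was 1.39 (SE 0.32, limma adjusted p = 0.020), and the call was lost without LP library 1 (0.057) or LP library 3 (0.0504). Without LP library 1 or LP library 3, 1 of the 3 further genes stayed called.

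Added up, the 5 genes read from their names as T2-type ribonucleases had a summed level of 145, 230 and 126 FPKM in the HP libraries and 594, 552 and 609 FPKM in the LP libraries. The mean sum was 167 ± 55.4 FPKM in HP nodules and 585 ± 29.7 FPKM in LP nodules (SD over 3 libraries), a ratio of 3.504, and 2.98 without Glyma.01G048400 and Glyma.02G107900. All 5 genes were taken from the study's list of changed genes, so neither ratio is independent evidence of a rise. T2-type genes outside that list are not in the sum. The make-up of this sum differed between treatments. Glyma.01G048400 made up 8.56 ± 1.82% of it at HP and 20.2 ± 4.03% at LP, and Glyma.02G107900 0.0082 ± 0.0142% and 1.83 ± 0.130%. Glyma.07G059300 held 17.8 ± 5.29% at HP and 35.5 ± 2.21% at LP, and Glyma.02G064100 70.3 ± 6.17% and 40.1 ± 2.15%. The share of the latter was thus lower at LP although its own level was higher. The shares of these 4 genes did not overlap between treatments. Glyma.02G064200 held 2.37 to 4.52% at HP and 1.99 to 2.73% at LP, ranges that overlap. Shares of 1 sum depend on each other, and no test was made on them.

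**Figure D3:**
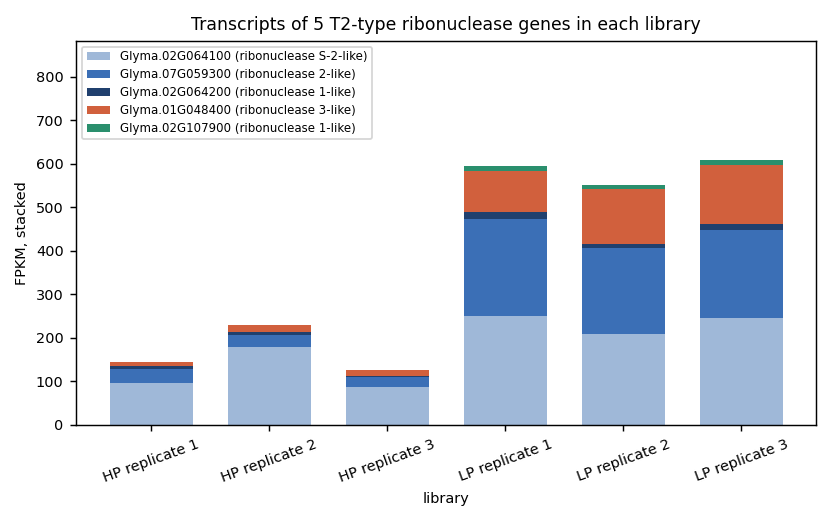
Summed FPKM of the 5 genes read from their names as T2-type ribonucleases in each library, stacked by gene, on a linear axis from 0. The sum was 126 to 230 FPKM in the HP libraries, mostly Glyma.02G064100, and 552 to 609 FPKM in the LP libraries, where Glyma.07G059300 and Glyma.01G048400 took larger parts. All 5 genes were taken from the study's list of genes changed in these libraries.

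Purple acid phosphatases, enzymes that free phosphate from organic esters, nucleotides included, were taken as the next step after the nucleases. The list is the 16 genes the study chose on these samples, so its direction is not independent evidence either. Of the 16 genes, 15 passed the minimum for testing and all 15 were called higher at LP by limma, beside 3.34% of all genes, with log2 fold changes of 1.18 to 5.34 and a median of 2.30. The relative increase of GmPAP11 (Glyma.06G028200) was the largest, from 1.35 ± 0.106 to 58.9 ± 4.10 FPKM (SD over 3 libraries), a log2 fold change of 5.34 (SE 0.11, limma adjusted p = 2.2e-07). GmPAP31 (Glyma.19G026600) went from 0.247 to 10.02 FPKM and GmPAP21 (Glyma.10G071000) from 0.413 to 12.6 FPKM, with log2 fold changes of 5.002 and 4.675. Both were low at HP, where GmPAP31 rests on 3, 17 and 11 fragments. With an added constant of 1 their log2 fold changes were 3.15 and 3.27, in the reverse order. By the mean over all 6 libraries, the highest levels were those of GmPAP13 (Glyma.08G056400), at 32.4 and 159.6 FPKM in HP and LP nodules, and GmPAP10 (Glyma.05G247800), at 16.1 and 75.9 FPKM. GmPAP32 (Glyma.19G193900), at 0.0528 and 0.503 FPKM, fell under the minimum. The log2 difference of Glyma.01G048400, 3.09, lay within the range of the phosphatases, as did the 4.48 of Glyma.01G083300. The 6.53 of Glyma.02G107900 lay above it, but this place depends on the added constant of 0.1. With 1 the gene had 3.52, under the 4.67 of GmPAP11, and with 0.01 it had 9.15, above the 5.43 of GmPAP11.

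The genes with the pattern most like that of each nuclease gene were found by the root mean square difference of log2(FPKM + 0.1) over the 6 libraries, after the gene's own mean was subtracted. With 2 treatments and 6 libraries, this measure is set mostly by the size of the difference between treatments, which chose the nuclease genes. For Glyma.01G048400 the closest were Glyma.01G236500, an uncharacterized gene (0.19), Glyma.07G070300, a U-box domain-containing protein 33-like gene (0.22), and Glyma.13G249700, a flavoprotein wrbA-like gene (0.23). For Glyma.02G107900 they were GmSPX1 (Glyma.01G135500, 0.25), the uncharacterized Glyma.07G011900 (0.26) and Glyma.01G178800, a lysosomal amino acid transporter 1-like gene (0.31). These matches depend on the added constant of 0.1: the HP values of Glyma.02G107900 lie under it, while those of GmSPX1 and Glyma.07G011900 lie well above it. For Glyma.01G083300 they were GmPAP21 (Glyma.10G071000, 0.24), GmSPX3 (Glyma.04G147600, 0.30) and the nucleoredoxin 3-like gene Glyma.04G076900 (0.34).

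The levels of these genes ranged more widely than their patterns. GmSPX1 was at 1.49 ± 0.159 FPKM in HP nodules and 129.6 ± 8.61 FPKM in LP nodules, and Glyma.07G011900 at 4.82 ± 0.705 and 357.5 ± 27.1 FPKM (SD over 3 libraries). Glyma.01G178800 was, like Glyma.02G107900, near the floor at HP, with 0.0525 ± 0.0334 FPKM against 14.2 ± 0.303 FPKM at LP. Within a distance of 0.5 lay 99 genes for Glyma.01G048400, 12 for Glyma.02G107900 and 17 for Glyma.01G083300. At the added constant of 0.1 the nuclease genes were farther from each other, at 1.74 between the 2 ribonuclease genes, 0.81 between Glyma.01G048400 and Glyma.01G083300 and 1.13 between Glyma.02G107900 and Glyma.01G083300. These distances depend on the constant too, since with 1 in place of 0.1 the log2 differences of Glyma.01G048400, Glyma.02G107900 and Glyma.01G083300 were 3.01, 3.52 and 2.77.

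**Figure D4:**
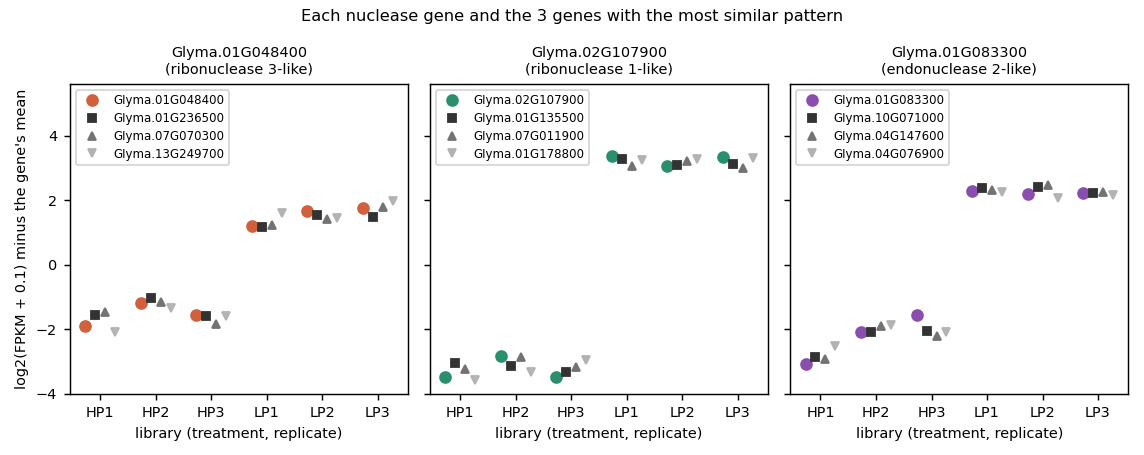
log2(FPKM + 0.1) minus the gene's own mean (y axis) in the 6 libraries (x axis) for each nuclease gene and the 3 genes with the most similar pattern. Points of 1 library are set side by side; the difference between HP and LP libraries grows from Glyma.01G048400 (3.09) over Glyma.01G083300 (4.48) to Glyma.02G107900 (6.53).

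The genes around the nuclease genes on the chromosome mostly did not pass the thresholds. Of the 60 nearest listed genes, 10 on each side of each nuclease gene, none overlapped it and 48 were tested. limma called 1 higher and 1 lower, beside 7.73% of all genes in either direction, and their log2 fold changes ran from −1.03 to 1.09. The genes directly beside Glyma.01G048400 were Glyma.01G048100, 20149 bases away with a log2 fold change of 0.06 (limma adjusted p = 0.91), and Glyma.01G048500, 28365 bases away with 0.07 (adjusted p = 0.69). Beside Glyma.02G107900 were Glyma.02G107800, 13761 bases away with −0.15 (adjusted p = 0.72), and Glyma.02G108000, 5570 bases away with 0.71 (adjusted p = 0.057), a gene at 1.57 ± 0.401 and 2.61 ± 0.497 FPKM in HP and LP nodules. Beside Glyma.01G083300, Glyma.01G083100 (90703 bases) had −0.42 and Glyma.01G083400 (53754 bases) 0.10, with adjusted p-values of 0.42 and 0.70.

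Both called neighbours lie before Glyma.01G048400 and are named here because they were called. Glyma.01G047000, 140979 bases away, went from 138.6 ± 9.16 to 67.7 ± 3.29 FPKM, a log2 fold change of −1.03 (limma adjusted p = 5.1e-04) that fell short of 1 in size without HP library 2 (−0.98), without LP library 1 (−0.995) and after rescaling (−0.85). Glyma.01G047200, 117172 bases away, went from 0.465 ± 0.159 to 1.08 ± 0.220 FPKM, a log2 fold change of 1.09 (limma adjusted p = 0.035). Its call was lost without HP library 2 (adjusted p = 0.079), HP library 3 (0.078), LP library 2 (0.106) or LP library 3 (0.106), with limma voom on recovered fragments (0.058) and with an added constant of 1 (log2 fold change 0.51).

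**Figure D5:**
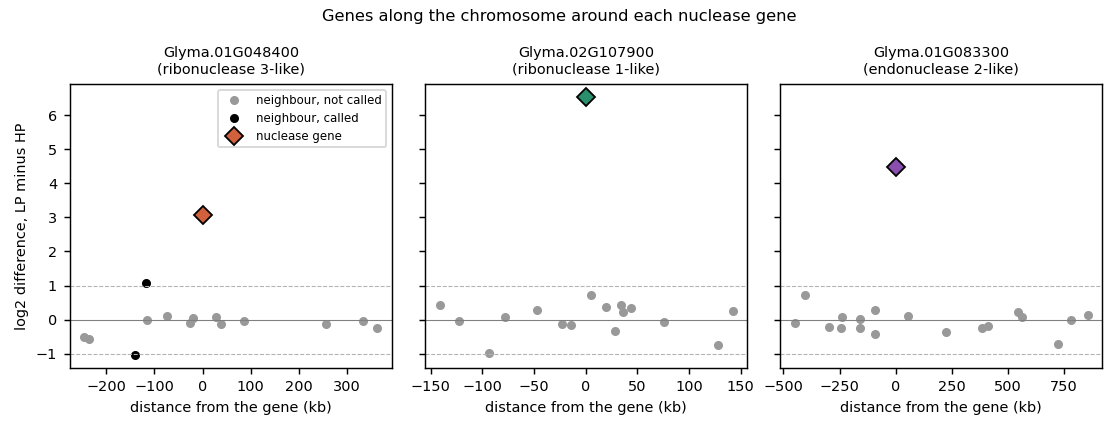
limma log2 fold change, LP minus HP, of the tested genes within 10 listed genes on either side of each nuclease gene (y axis), against the distance from that gene in kb (x axis), with called neighbours in black and dashed lines at the threshold. The neighbours lie between −1.03 and 1.09, under the values of the nuclease genes they surround, which are 3.09, 6.53 and 4.48.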

How the data were processed

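Reads of 3 HP and 3 LP nodule libraries (Illumina HiSeq platform, paired ends) were trimmed by the authors and aligned with HISAT2 2.1.0, with at most 1 mismatch, on an index made with Bowtie2 2.2.3. Abundance was estimated with Cufflinks, and the authors compared treatments with DESeq2 1.6.3. The strand setting of the counting is not given in the sources used here. The authors deposited FPKM values per library with gene positions on Wm82.a2.v1. Only genes above 0 are listed, and a missing gene was taken as 0. The fold changes and p-values of the study's supplementary table were not used, and from it and the study's gene table only names and lists were taken.

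Values were tested with limma 3.58.1 (R 4.3.3, eBayes with trend and robust, two-sided, Benjamini-Hochberg) as log2(FPKM + 0.1) over genes that reached 0.5 FPKM in 3 or more libraries. Fold changes are on that scale, which understates those of low genes. Whole fragments were recovered from the steps of the FPKM values (relative tolerance 1e-09) for all 39712 genes, as the smallest whole numbers, and made up 99.26 to 99.3% of the totals. They gave the 95% counting intervals and floors of 3 fragments. PCR copies are not independent molecules. P-values measure the spread between pools of 2 plants. The code was tested on simulated data.

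The nuclease genes and all lists were chosen with earlier results of these data known. Named were the 3 nuclease genes, the other T2-type genes that averaged 1 FPKM or more, 3 phosphatases by fold and 2 by level, the 3 most similar genes each and the adjacent genes. Other genes were named after their values were seen. The reference held no proteins or descriptions of these IDs, so the families were taken from the study's names, and no other S1/P1 nuclease was found there. Alternatives were added constants of 1 and 0.01, no minimum, median-of-ratios rescaling, a replicate block, each library left out, and limma voom on recovered fragments.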

Additional observations from a re-analysis of the deposited data

How the results depend on the processing

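The count of genes lower at LP, 1370, was 602 with an added constant of 1 (751 higher) and 676 with median-of-ratios rescaling (1404 higher). Leaving out 1 library gave 838 to 1151 genes higher and 1057 to 1438 lower. The T2-type count of 3 was 1 to 3, and the phosphatase count was 15 to 15. The log2 differences of the nuclease genes were 2.91 to 3.27 (Glyma.01G048400), 6.43 to 6.75 (Glyma.02G107900) and 4.05 to 4.82 (Glyma.01G083300). With an added constant of 1 they were 3.52 (Glyma.02G107900) and 2.77 (Glyma.01G083300), and 9.15 for Glyma.02G107900 with 0.01, since the HP values lie near or under the constant. These moves were the only ones of the nuclease genes beyond the spread between libraries.

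The replicate numbers gave no sign of a pairing: deviations of same-numbered libraries correlated at 0.17, −0.02 and −0.15. Those of differently numbered libraries correlated at −0.19 to 0.19. The deviations are taken from means of 3 libraries and depend on each other, so this check cannot exclude a pairing. With the replicate block, 1046 genes were higher and 1288 lower, and 3 T2-type genes and 15 phosphatases stayed called. Through all alternatives 28 tested genes were followed: T2-type genes, named phosphatases, adjacent or called neighbours, other nucleases and genes of nucleotide handling. The leghemoglobin genes and the genes of similar pattern were not among them. Of the 28, only Glyma.01G047200 lost its call with the replicate block (limma adjusted p = 0.068). Over these 28 genes, 306 values kept direction and call, 22 lost the call, 2 gained it and 6 changed sign. Those 6 belong to uncalled neighbours: with 1 library left out, Glyma.01G048100 ranged from −0.18 (without HP replicate 1; −0.051 without LP replicate 1) to 0.31, Glyma.01G048500 from −0.043 (without LP replicate 2) to 0.14, Glyma.02G107800 from −0.30 to 0.11 (without LP replicate 3) and Glyma.01G083400 from −0.050 (without HP replicate 1) to 0.24, and Glyma.02G107800 had 0.028 after rescaling. The cause was not tested. The alternatives for other S1/P1 nucleases were not run, as no such gene was found. Depth limits Glyma.02G107900 at HP, where 1 fragment was found, and Glyma.01G083300, where 27 were.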

Other observations

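The study's names also gave 4 nucleases of other types and 9 genes of nucleotide handling, all from its list of changed genes and collected after their values were seen. Of the 4 nucleases, 2 were called higher at LP by limma, 1 lower and 1 not called, beside 3.34% of all genes tested called higher and 4.39% lower. The 5'-3' exoribonuclease 3-like gene Glyma.14G218000, named for enzymes that degrade RNA from its 5' end, went from 10.9 ± 1.09 to 23.0 ± 0.131 FPKM (log2 fold change 1.08, limma adjusted p = 4.5e-04). The repair exonuclease 2-like gene Glyma.03G233000 also had 1.08, and its call was lost without HP library 2 (0.96) or LP library 3 (0.9998). The chloroplastic ribonuclease E/G-like gene Glyma.03G063000, named for an enzyme of plastid RNA processing, fell from 1.79 ± 0.294 to 0.680 ± 0.226 FPKM (−1.30, limma adjusted p = 0.012). With an added constant of 1 its log2 fold change was −0.74, and that of Glyma.03G233000 0.78, and neither was called. Glyma.14G021600, named for the RNase III type that cuts double-stranded RNA, had 0.95, and 1.14 after rescaling, where it was called.

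Of the 9 genes of nucleotide handling, 8 were tested, and 5 were called higher and 2 lower, beside the same 3.34% and 4.39% of all genes. The equilibrative nucleotide transporter 8-like gene Glyma.13G165700 rose from 0.396 ± 0.0830 to 4.22 ± 0.216 FPKM (3.13), and the pseudouridine-5'-monophosphatase-like genes Glyma.13G291000 and Glyma.12G210300 rose with log2 fold changes of 2.99 and 1.603. The cyclic phosphodiesterase-like gene Glyma.05G163100 had 1.39. The nucleoside-triphosphatase-like gene Glyma.16G043400 had 2.15, and its neighbour by number, Glyma.16G043300, the most abundant of the 9, had 0.95 with 273.5 ± 27.8 FPKM in HP nodules and 526.8 ± 35.5 FPKM in LP nodules, and 1.14 with a call after rescaling. The dUTPase-like genes Glyma.14G207800 (−1.27) and Glyma.18G048400 (−1.58) fell, the latter with no call without HP library 1 (adjusted p = 0.052). Glyma.02G034400 was under the minimum, with 0.0266 FPKM in HP nodules and 0.397 FPKM in LP nodules.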
